A study of Homo sapiens with 2 samples.

Results

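The BTG and TOB proteins are a family of small antiproliferative adaptors, and the 7 genes described here are BTG1, BTG2, BTG3, TOB1 and TOB2 together with CNOT7 and CNOT8, which encode the deadenylase partners that the family binds. The members were chosen by gene name and not by their values, though with earlier results of these data known. All 7 were found by Entrez number among the 25702 gene features of the count table. RNA came from the REH line of human B-cell precursor acute lymphoblastic leukaemia, labelled REH-R, in which a tetracycline-regulated cassette was switched on with 1 µg/mL doxycycline for 3 days before GFP-positive cells were sorted. In one culture the cassette held PAX5-IRES-GFP, and these are called PAX5 cells; PAX5 is the B-lineage commitment factor. In the other it held IRES-GFP alone, and these are called control cells. Both cultures received the drug and the sort. The comparison addresses which transcripts differ when PAX5 is supplied to these leukaemia cells. Each group was 1 library from a single line, so the differences have no replicate check and carry no p-value.

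BTG and TOB proteins share an N-terminal domain that docks on CNOT7 or CNOT8, the CAF1-type exonucleases of the CCR4-NOT complex, which shorten the poly(A) tails of messenger RNAs before decapping and decay. TOB1 and TOB2 also bind the cytoplasmic poly(A)-binding protein through motifs in their C-terminal parts. In lymphocytes BTG1 and BTG2 are known, from mice, for holding cells in quiescence and for shaping B-cell precursor development, and BTG1 is known in patients for recurrent deletion in acute lymphoblastic leukaemia.

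Total deposited read counts were 11944765 for PAX5 cells and 10997864 for control cells. PAX5 itself had 8319 counts (699.7 CPM, counts per 1000000 after TMM scaling) in PAX5 cells and 2660 counts (240.7 CPM) in control cells. The control cells thus also held PAX5 transcript, and a count per gene cannot tell cassette from endogenous transcript. All 7 markers of B-cell precursors fixed for this report were counted in both libraries, with summed levels of 5701 CPM in PAX5 cells and 6075 CPM in control cells, while 4 of 5 T-cell markers and 3 of 4 erythroid markers had 0 counts in both. Myeloid markers summed to 20.0 CPM in PAX5 cells and 29.2 CPM in control cells, mostly from the integrin gene ITGAM, and stromal markers summed to 9.67 and 8.60 CPM in the PAX5 and control cells. Their part in any result was not tested.

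The 5 BTG and TOB genes all had higher levels in PAX5 cells than in control cells, as 49% of all features did, and this held under each scaling tried; CNOT7 and CNOT8 were level between the libraries. BTG2 differed the most, with more than double the control level. BTG3, TOB2 and BTG1 followed with smaller ratios whose 95% counting intervals lay above 0 on the log2 scale, and the interval of TOB1 held 0. These intervals are exact and conditional on each gene's summed count. They cover counting error only, so they compare these 2 libraries and not the conditions. In bulk RNA, a change in the share of cells that express a gene and a change in RNA per cell cannot be told apart.

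By the rule of size used for the whole table, an interval bound at or beyond 2-fold with at least 10 summed counts, 0 of 7 members were higher or lower, against 1.34% higher and 0.0517% lower among all 13532 features with that count. With the bound at 1.5-fold, 1 of 7 members, BTG2, was higher, against 2.62% of all features. Intervals lay above 0 for 4 of 7 members and below 0 for 0 of 7, where 18.7% of all features had intervals above 0 and 16.8% below. The members had from 477 to 4554 summed counts, and among the 7218 features with 400 to 5000 summed counts the corresponding shares were 21.9% above 0 and 20.6% below. The median log2 ratio was 0.28 over the 7 members and 0.35 over the 5 BTG and TOB genes, against -0.01 over all features with at least 10 counts.

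**Figure D1:**
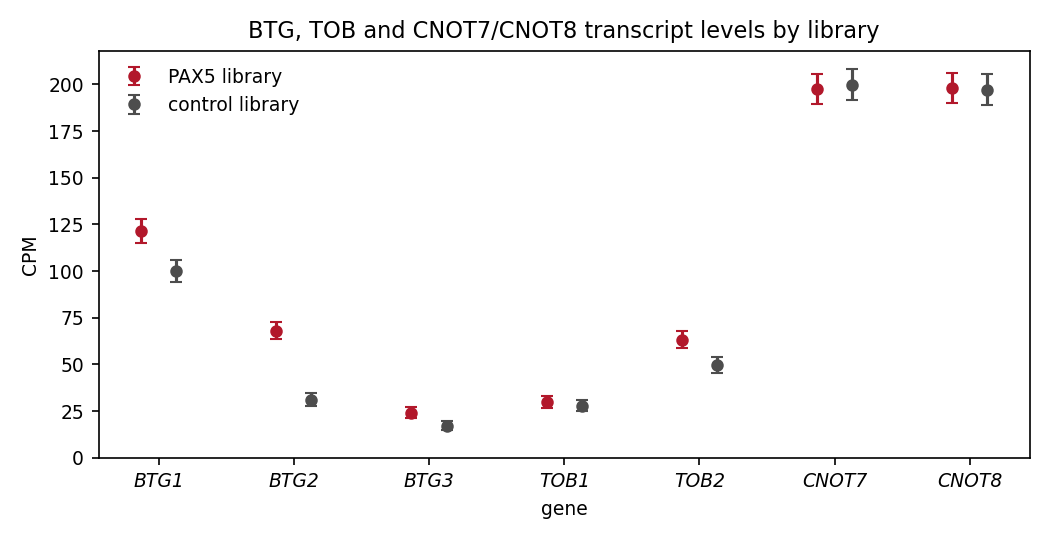
Level of each member in CPM (vertical axis, linear from 0) in PAX5 cells (red) and control cells (grey); bars are exact 95% counting intervals of single libraries. BTG2 lies at 68.0 CPM in PAX5 cells and 31.1 CPM in control cells, while the points of CNOT7 and CNOT8 lie between 197.0 and 199.8 CPM in both.

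The 3 BTG genes come first. BTG2 (Entrez 7832; also known as TIS21 and PC3) encodes an adaptor that is induced early by growth and stress signals. It had 809 counts (68.0 CPM) in PAX5 cells and 344 counts (31.1 CPM) in control cells, with counting intervals that did not overlap. The ratio was 2.19-fold (95% counting interval 1.92 to 2.49), a log2 ratio of 1.13 (0.94 to 1.31), and its lower bound fell just short of the 2-fold rule. Among the 7218 features with 400 to 5000 summed counts, 48 (0.665%) had a higher log2 ratio than BTG2. A point ratio at or beyond 2-fold was reached by 0.942% of those features.

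BTG1 (Entrez 694) encodes the closest relative of BTG2 and is the most highly counted of the 5 BTG and TOB genes. It had 1444 counts (121.5 CPM) in PAX5 cells and 1103 counts (99.8 CPM) in control cells. The ratio was 1.22-fold (1.12 to 1.32), a log2 ratio of 0.28 (0.17 to 0.40), a small difference whose interval stayed clear of 0. Of the features with 400 to 5000 counts, 11% had a higher ratio than BTG1.

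BTG3 (Entrez 10950; also known as ANA) encodes a longer family member. It had 287 counts (24.1 CPM) in PAX5 cells and 190 counts (17.2 CPM) in control cells, the fewest counts of the 7. The ratio was 1.40-fold (1.16 to 1.70), a log2 ratio of 0.49 (0.22 to 0.76), and 4.20% of the features with 400 to 5000 counts lay higher. The ratio of BTG2 exceeded that of both relatives beyond counting error. The count ratio of BTG2 to BTG1, which needs no scaling of the libraries, was 0.560 in PAX5 cells and 0.312 in control cells, 1.80-fold apart (1.54 to 2.09). The count ratio of BTG2 to BTG3 was 2.82 in PAX5 cells and 1.81 in control cells, 1.56-fold apart (1.24 to 1.96).

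Promoter sequences are shown for BTG2 and BTG1, the member with the largest difference and its closest relative, with a short stretch of CNOT8 for contrast. They come from RefSeq on GRCh38.p14, whereas the counts were made on hg19 (GRCh37), so their coordinates belong to the sequences alone. Each of the first 2 is the 250 bases before the annotated start, read in the direction of transcription. BTG2 occupies chr1:203305269-203305518 on the plus strand and BTG1 occupies chr12:92145847-92146096 on the minus strand. The 30 bases of CNOT8 occupy chr5:154858469-154858498 on the plus strand. Capitals mark matches to the motifs named in the paragraph that follows.
BTG2: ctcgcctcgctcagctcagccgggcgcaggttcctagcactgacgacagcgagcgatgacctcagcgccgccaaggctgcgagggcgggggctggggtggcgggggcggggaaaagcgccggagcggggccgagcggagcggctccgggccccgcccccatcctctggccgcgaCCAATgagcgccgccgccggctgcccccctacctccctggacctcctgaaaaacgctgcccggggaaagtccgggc
BTG1: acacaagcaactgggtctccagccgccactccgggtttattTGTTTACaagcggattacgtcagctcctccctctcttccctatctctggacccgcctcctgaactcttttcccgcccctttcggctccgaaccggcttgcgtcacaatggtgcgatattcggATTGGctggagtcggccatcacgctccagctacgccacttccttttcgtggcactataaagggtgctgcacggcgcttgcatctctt
CNOT8: gggaggagcggGCGTGACcaggcgcgcgcg

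Windows of 250 bases before to 50 after the start were in the table for 6 of 7 members, with 2 starts for TOB1 and 3 for CNOT8, which makes 9 windows, and CNOT7 had none. The core of the PAX5 paired-domain consensus, GCGTGAC, was searched on both strands and matched 2 of the 9 windows, both of them overlapping windows of CNOT8, against 2.52% of all 35116 promoter windows. The forkhead motif GTAAACA, which FOXO factors recognise, matched 1 of 9, in BTG1 as TGTTTAC, against 3.42% of windows. The CCAAT box matched 3 of 9, in BTG2, in BTG1 as ATTGG and in TOB1, against 34.6% of windows. The E-box CACGTG matched 0 of 9, against 7.26% of windows. Matches describe letters within these windows and not binding. The 250 bases shown were 74.8% G or C for BTG2 and 56.4% for BTG1.

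The TOB genes encode the larger members, which bridge CNOT7 or CNOT8 and the poly(A)-binding protein. TOB2 (Entrez 10766) had 752 counts (63.2 CPM) in PAX5 cells and 547 counts (49.5 CPM) in control cells. The ratio was 1.28-fold (1.14 to 1.43), a log2 ratio of 0.35 (0.19 to 0.51), and 7.51% of the features with 400 to 5000 counts had a higher one. TOB1 (Entrez 10140), known in T cells as a brake on activation, had 356 counts (29.9 CPM) in PAX5 cells and 308 counts (27.9 CPM) in control cells. Its counting intervals overlapped, and the ratio was 1.07-fold (0.920 to 1.26), a log2 ratio of 0.10 (-0.12 to 0.33). TOB1 and TOB2 were not shown to differ from each other in this respect: the count ratio of TOB2 to TOB1 was 2.11 in PAX5 cells and 1.78 in control cells, 1.19-fold apart with an interval of 0.981 to 1.44.

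CNOT7 and CNOT8 encode near-interchangeable catalytic subunits, only one of which sits in a given CCR4-NOT complex. CNOT7 (Entrez 29883) had 2346 counts (197.3 CPM) in PAX5 cells and 2208 counts (199.8 CPM) in control cells. CNOT8 (Entrez 9337) had 2356 counts (198.2 CPM) in PAX5 cells and 2177 counts (197.0 CPM) in control cells. The ratios were 0.987-fold (0.931 to 1.05) for CNOT7 and 1.01-fold (0.948 to 1.07) for CNOT8, so at this depth differences of more than about 7% in either direction lie outside both intervals. The count ratio of CNOT7 to CNOT8 was 0.996 in PAX5 cells and 1.01 in control cells, 0.982-fold apart (0.903 to 1.07).

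**Figure D2:**
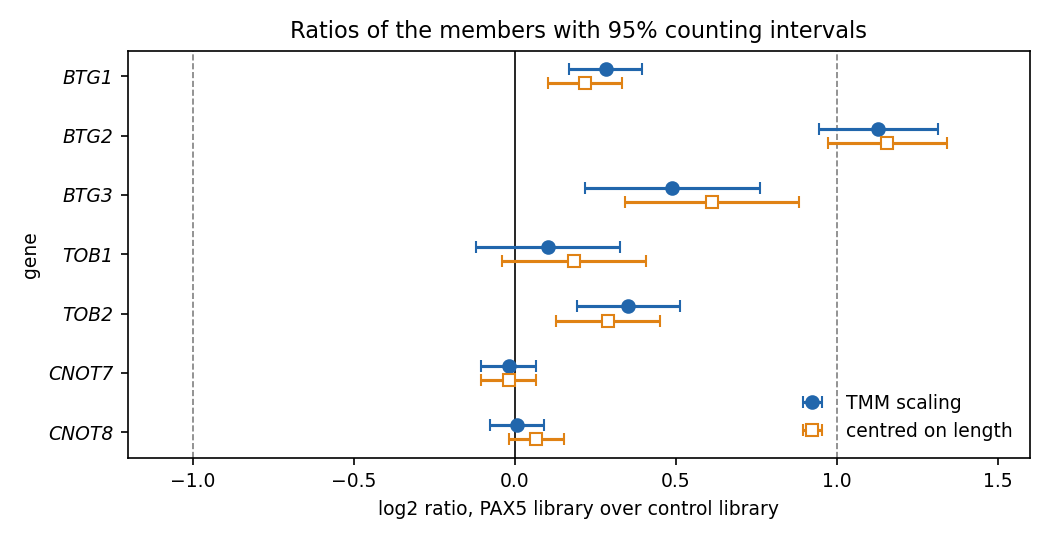
Log2 ratio of PAX5 over control cells for each member, with exact 95% counting intervals; filled circles use TMM scaling, open squares are also centred on genes of like length, and dashed lines mark 2-fold. The interval of BTG2 reaches down to 0.94 and those of TOB1, CNOT7 and CNOT8 cross 0 in both versions.

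Short genes were lower and long genes higher in PAX5 cells in general, so each member was also set against genes of like length. Over 10 equal groups by deposited length, made from features of 100 counts or more, the median log2 ratio was -0.20 in the shortest group and 0.19 in the longest. The members' own groups had medians between -0.12, for BTG3 at 1594 bases, and 0.06, for BTG1 at 4680 bases and TOB2 at 4565 bases. After this centring the log2 ratio was 1.16 (0.97 to 1.34) for BTG2, 0.61 (0.34 to 0.88) for BTG3, 0.29 (0.13 to 0.45) for TOB2 and 0.22 (0.11 to 0.33) for BTG1. TOB1 (0.18, -0.04 to 0.41), CNOT8 (0.07, -0.02 to 0.15) and CNOT7 (-0.02, -0.10 to 0.07) still had intervals that held 0. The 4 members with intervals above 0 were therefore the same before and after centring, and 0 lay below 0; after centring, 16.7% of all features lay above 0 and 13.7% below.

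**Figure D3:**
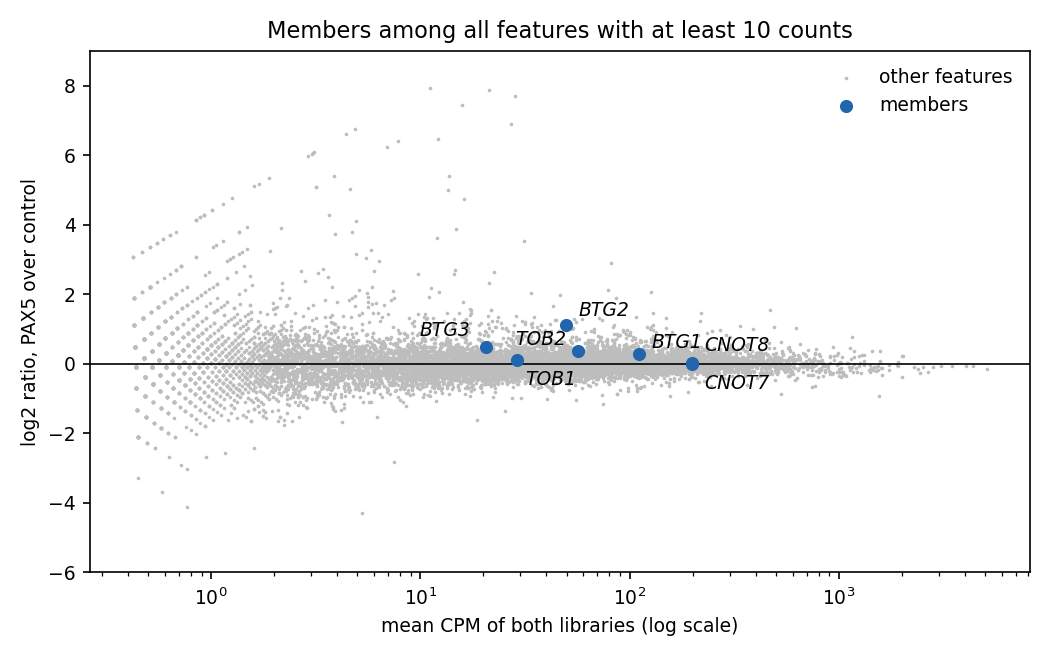
Log2 ratio of PAX5 over control cells (vertical axis) against mean CPM of both libraries (horizontal, log scale) for features with at least 10 summed counts and at least 1 count in each library; blue points are the members and grey points all other features. BTG2 sits near the upper edge of features of like abundance at 1.13, and the other 6 members lie between -0.02 and 0.49.

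Adaptors and deadenylases can also be compared as pools, since the adaptors bind CNOT7 or CNOT8 among other partners. The pools are sums of counts not divided by gene length, so they are not ratios of transcript numbers. The 5 BTG and TOB genes summed to 3648 counts (306.8 CPM) in PAX5 cells and 2492 counts (225.5 CPM) in control cells, 1.36-fold higher (1.29 to 1.43). The 2 deadenylase genes summed to 4702 counts (395.5 CPM) in PAX5 cells and 4385 counts (396.9 CPM) in control cells, a ratio of 0.996-fold (0.956 to 1.04). There were thus 0.776 adaptor counts for each deadenylase count in PAX5 cells and 0.568 in control cells, 1.37-fold apart (1.28 to 1.46), a value that does not depend on library scaling.

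BTG2 took a larger part of the adaptor pool in PAX5 cells. Its share of BTG and TOB counts was 22.2% (exact binomial interval 20.8% to 23.6%) in PAX5 cells and 13.8% (12.5% to 15.2%) in control cells. The share of BTG1 was 39.6% (38.0% to 41.2%) in PAX5 cells and 44.3% (42.3% to 46.2%) in control cells, and that of TOB1 was 9.76% (8.81% to 10.8%) and 12.4% (11.1% to 13.7%) in the PAX5 and control cells. The shares of TOB2 (20.6% in PAX5 cells and 22.0% in control cells) and BTG3 (7.87% and 7.62%) had overlapping intervals. The shares sum to a whole, so a larger share of BTG2 lowers the others by construction.

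Levels of different genes were ordered by CPM per 1000 bases of deposited length. In the PAX5 library the order was CNOT8 (79.8 CPM per 1000 bases), CNOT7 (55.4), BTG1 (25.95), BTG2 (25.1), TOB1 (16.4), BTG3 (15.1) and TOB2 (13.9). BTG1 and BTG2 did not differ beyond counting error there (1.03-fold, 0.948 to 1.13), nor did the neighbouring pairs of TOB1 and BTG3 or BTG3 and TOB2. In the control library the order was CNOT8 (79.4), CNOT7 (56.1), BTG1 (21.3), TOB1 (15.2), BTG2 (11.5), TOB2 (10.8) and BTG3 (10.8 CPM per 1000 bases). The level of BTG2 in control cells lay below that of TOB1, which was 1.33-fold higher (1.13 to 1.55), and did not differ from that of TOB2 beyond counting error. Both deadenylase genes stood above every adaptor gene in both libraries.

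BTG4, the remaining BTG gene and known from oocytes, had 0 counts in both libraries, which leaves room for 0.252 CPM in PAX5 cells and 0.272 CPM in control cells at a floor of 3 counts. BTG2-DT, the divergent noncoding transcript at the BTG2 promoter, had 3 counts in PAX5 cells and 1 in control cells, a ratio of 2.79-fold with an interval of 0.224 to 146.4. TOB1-AS1, which overlaps TOB1 on the opposite strand, had 26 counts in PAX5 cells and 32 in control cells, and the pseudogene TOB2P1 had 1 and 3. VPS37A, which overlaps CNOT7 on the opposite strand, had 434 counts in PAX5 cells and 385 in control cells. The strand setting of the counting is not given, so reads in overlapping stretches cannot be assigned with certainty. BTG3 and BTG1 also have antisense transcripts in the GENCODE annotation, and LINC01619 overlaps BTG1 on the same strand. No feature was found under the names of these transcripts, though some features had no symbol.

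The rest of the CCR4-NOT complex was close to level as well. Of 10 other subunits, 0 passed the 2-fold rule, 2 had intervals above 0 and 0 below, with a median log2 ratio of 0.01. These counts and those of the gene lists that follow are to be read against the 18.7% of all features with intervals above 0 and the 16.8% below. Past the 2-fold rule the shares were 1.34% higher and 0.0517% lower. After centring on length, 16.7% of all features had intervals above 0 and 13.7% below. Intervals narrow with counts, so the shares are too low a mark for genes with many counts. With 400 to 5000 summed counts they were already 21.9% above 0 and 20.6% below, before centring. CNOT1, the scaffold on which the complex is built, had 9940 counts in PAX5 cells and 7656 in control cells, a log2 ratio of 0.27 (0.23 to 0.31) that became 0.08 after centring on length. CNOT6L, a CCR4-type deadenylase, had a log2 ratio of 0.11 (0.01 to 0.21), and after centring it was at -0.09 with an interval that held 0.

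Other deadenylases and poly(A)-binding proteins had more intervals below 0 than above. Of 13 measured, 0 passed the rule, 2 had intervals above 0 and 6 below, and the median log2 ratio was -0.05. PABPC1, the main cytoplasmic poly(A)-binding protein and a TOB ligand, had 26744 counts in PAX5 cells and 27795 in control cells, a log2 ratio of -0.16 (-0.19 to -0.14). PABPC4, its inducible relative, had a log2 ratio of -0.29 (-0.37 to -0.21), and NOCT, a circadian relative of the CCR4 nucleases, had -0.51 (-0.87 to -0.16). ANGEL1 (0.26) and PAN2 (0.20), the catalytic partner of PAN3, had intervals above 0, and that of PAN2 held 0 after centring on length.

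Of 17 genes of decapping and decay, the steps after deadenylation, 0 passed the rule, with 4 intervals above 0, 3 below and a median log2 ratio of 0.01. XRN1, the cytoplasmic exonuclease that degrades decapped messages, had 1934 counts in PAX5 cells and 1359 in control cells, a log2 ratio of 0.40 (0.30 to 0.50), or 0.21 after centring on length. LSM14A (0.17) and the decapping enzyme gene DCP2 (0.12) also had intervals above 0, but after centring DCP2 lay on the other side of 0, at -0.08 (-0.13 to -0.02). The short genes LSM6 (-0.31), LSM4 (-0.22) and LSM7 (-0.21), members of the Lsm rings, had intervals below 0, and after centring on length they were at -0.11, -0.02 and -0.01.

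Proteins that bring CCR4-NOT to chosen messages had more intervals above 0 than below. Of 23 genes, 22 had at least 10 counts, 0 passed the rule, 11 had intervals above 0 and 2 below, with a median log2 ratio of 0.17, and after centring on length 7 were above, 3 below and the median was 0.06. TNRC6C, a GW182 scaffold of microRNA silencing, had 621 counts (52.2 CPM) in PAX5 cells and 347 counts (31.4 CPM) in control cells, a log2 ratio of 0.73 (0.54 to 0.93). ZFP36, which directs messages with AU-rich elements to decay, had 604 counts (50.8 CPM) in PAX5 cells and 364 counts (32.9 CPM) in control cells, a log2 ratio of 0.62 (0.43 to 0.82). Both stayed above 0 after centring, at 0.54 and 0.75. TNRC6B had a log2 ratio of 0.37, while ZFP36L1 (-0.17), a relative of ZFP36 that is known in mice to restrain B-cell precursor proliferation, and SAMD4B (-0.14) had intervals below 0.

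**Figure D4:**
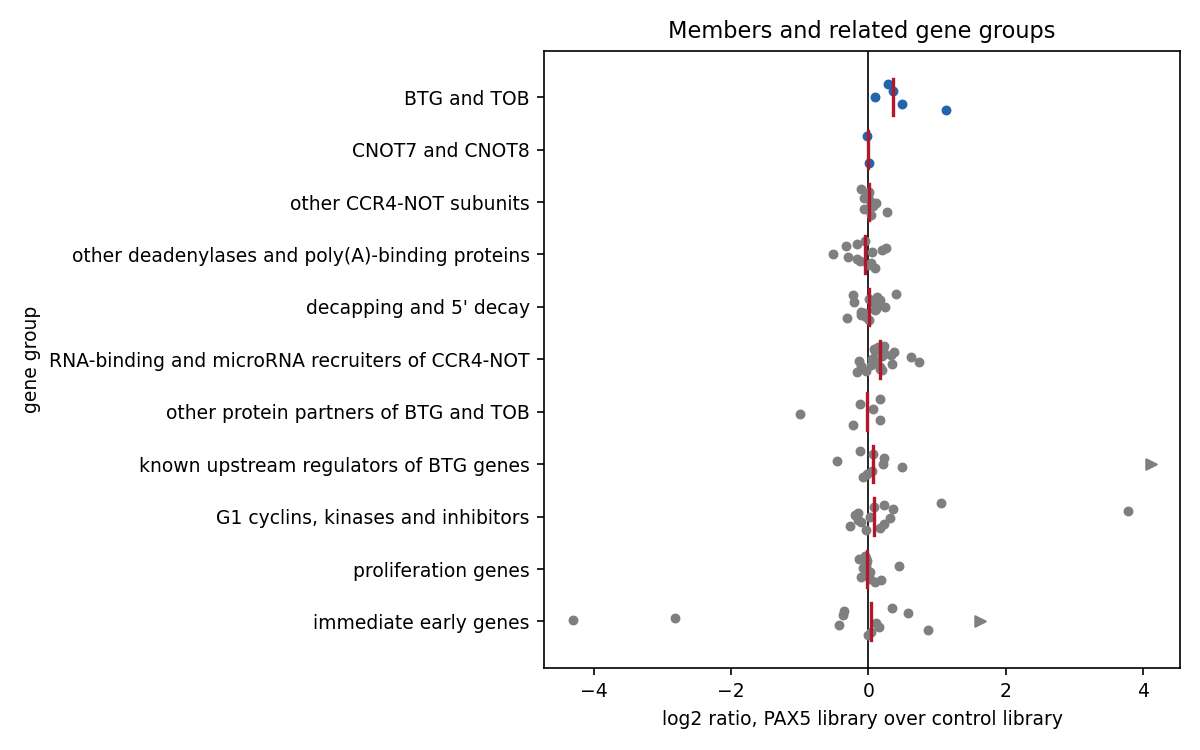
Log2 ratio of PAX5 over control cells for the members (blue) and for genes of 9 related groups with at least 10 summed counts (grey); red bars are group medians and triangles are genes with 0 control counts, drawn at their ratio over a floor of 3 counts. The median is 0.35 for the BTG and TOB genes and between -0.05 and 0.17 for the 9 related groups.

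Other protein partners of the family gave 0 of 6 past the rule, 1 interval above 0 and 2 below. PRMT1, an arginine methyltransferase that BTG1 and BTG2 bind, had a log2 ratio of -0.22 (-0.30 to -0.15). SMAD4, the common partner of TGF-beta and BMP signalling, had 0.17 (0.07 to 0.27), which became -0.02 (-0.12 to 0.08) after centring on length, so that 0 intervals of this list then lay above 0 and 2 below. SMAD5, a BMP effector of the kind TOB1 binds, had -0.12 (-0.22 to -0.02).

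Known upstream regulators of BTG genes were mixed, with 1 of 10 past the rule, 4 intervals above 0 and 2 below, and a median log2 ratio of 0.06, which is the same with TP73 at its bound. FOXO1, a forkhead factor needed in B-cell precursors, had 5043 counts (424.2 CPM) in PAX5 cells and 3347 counts (302.9 CPM) in control cells, a log2 ratio of 0.49 (0.42 to 0.55), or 0.38 after centring on length. FOXO3, known to raise BTG1, had a log2 ratio of 0.23 (0.12 to 0.35), which became 0.04 after centring. The transcription factor gene TP73 passed the rule with 56 counts in PAX5 cells and 0 in control cells, at least 17.3-fold higher over a floor of 3 counts in control cells, while the exact interval starts lower, at 13.6-fold. TP63 had a log2 ratio of -0.46 (-0.87 to -0.06).

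Genes of G1, the cell cycle phase whose end BTG and TOB proteins are known to delay, had 1 of 15 past the rule, 7 intervals above 0 and 4 below, with a median log2 ratio of 0.08. CCND1, the cyclin D1 gene that BTG2 and TOB1 are known to restrain, had 104 counts (8.75 CPM) in PAX5 cells and 7 counts (0.634 CPM) in control cells. It was the gene of this list past the rule, with a log2 ratio of 3.79 (2.69 to 5.14). CCND3, the dominant D cyclin of these cells, had 1335 CPM in PAX5 cells and 1146 CPM in control cells, a log2 ratio of 0.22 (0.19 to 0.25). CDKN1B, the gene of the inhibitor p27, had a log2 ratio of 0.32 (0.21 to 0.43) and CCND2 of 1.06 (0.29 to 1.87), while E2F1 (-0.27), CDK4 (-0.20) and CDK6 (-0.10) had intervals below 0. After centring on length 6 intervals of this list lay above 0 and 2 below, and that of CDK4 held 0.

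Proliferation genes stood on both sides of 0. Of 16 measured, 0 passed the rule, 3 had intervals above 0 and 4 below, and the median log2 ratio was -0.02. MKI67, the proliferation antigen gene, had a log2 ratio of 0.44 (0.41 to 0.48), or 0.25 after centring on length, and TOP2A had 0.19. PLK1 (-0.13), CDK1 (-0.10) and CCNB1 (-0.08), which act in mitosis, had intervals just below 0. After centring on length 6 intervals of this list lay above 0 and 2 below, and those of PLK1 and CCNB1 held 0.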

How the data were processed

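Each of the 2 libraries, 1 per genotype label, was made from total RNA of sorted REH cells. The authors deposited raw read counts per Entrez gene with a gene length in bases, and the submitters' processing notes name featureCounts and the build hg19 (GRCh37). For the aligner, strand setting and multi-mapped reads, the choice is not given in the sources used here. All 51404 values of the series table equalled those of the single-library files. Symbols came from RefSeq by Entrez number and matched 23696 of 25702 features.

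TMM scaling (edgeR 4.0.16 under R 4.3.3) used features of the whole table with at least 10 summed counts and gave factors of 0.9954 (PAX5) and 1.0046 (control). With 1 library per group edgeR and DESeq2 have no residual degrees of freedom, so no test was run. Exact Clopper-Pearson 95% intervals came from scipy 1.17.1 and cover counting error only, since each group has 1 library. These intervals may be too narrow even for that error, because PCR copies are not independent molecules. They reach 0.26 to each side (log2) at 500 summed counts, 0.18 at 1000 and 0.090 at 4000.

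The members, 9 pathway lists and motifs were chosen with earlier results of these data known. From each list, genes past the rule and up to 3 others per side with the bound farthest from 0 are named; 1 list member is counted but not reported here by name. VPS37A was named after its values were seen. The calculation was run on simulated data drawn with counting error alone, the same error that the intervals assume. That run checks the code and says nothing about the spread between libraries. Alternatives were scaling by total counts, DESeq2 1.42.0 size factors or upper-quartile factors, centring on length, count minimums, other fold rules, the single-library files and no length division.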

Additional observations from a re-analysis of the deposited data

How the results depend on the processing

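Of 98 values recomputed under the alternatives, 94 stayed the same, 4 moved and 0 reversed. Same means, for a ratio, inside its counting interval and, for a count, within 1.5 times the count reported. A ratio was called reversed only where its TMM interval excluded 0, so TOB1, CNOT7 and CNOT8 could not be. Some of the 94 values could not change: the 8 from single-library files rest on equal counts, and every member exceeds a minimum of 50 counts. Each scaling also shifts all ratios by the same amount. Among the related gene lists, 22 intervals lay below 0 after centring on length, against 27, and 33 lay above 0 with upper-quartile factors, against 38. Calls on the higher side in these lists were 2 after centring or with a minimum of 50 counts and 4 by the point ratio, against 3. Members past the rule on the higher side went from 0 to 1, BTG2 in each case, when the bound was set at 1.5-fold or the point ratio at 2-fold replaced the bound. Without division by length, 4 of 7 members stayed at the same rank of level in PAX5 cells and 3 of 7 in control cells, because long genes then count for more. The scalings moved the median of all features by at most 0.03 in size on the log2 scale (-0.03 for upper-quartile factors). No paired analysis was possible because each group has 1 library, and no replicate could be left out for the same reason. The direction of the 5 BTG and TOB genes was the same under all scalings and after centring, while CNOT8, at 0.01 with TMM, was at -0.01 by total counts and -0.02 by upper-quartile factors. Depth limits TOB1 and BTG3 the most.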

Other observations

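BTG2 was first known as an immediate early gene, and its level was set beside others of that class. Of 14 such genes 13 had at least 10 counts. The 2-fold rule was passed by 1 on the higher side and 2 on the lower, against 1.34% and 0.0517% of all features. Intervals lay above 0 for 4 and below 0 for 4, with a median log2 ratio of 0.04. DUSP1, a phosphatase that switches off MAP kinases, had 5247 counts in PAX5 cells and 3275 in control cells, a log2 ratio of 0.57 (0.51 to 0.64). IER3 had a log2 ratio of 0.87 (0.45 to 1.31) and JUN of 0.35 (0.02 to 0.67). EGR3, the gene past the rule on the higher side, had 10 counts in PAX5 cells and 0 in control cells, just at the minimum of 10 summed counts. It no longer passed after centring on length, with a bound of 0.995 (log2), or with a minimum of 50 counts. EGR1, with 6 counts in PAX5 cells and 110 in control cells, and FOS, with 22 and 144, lay far on the other side, and MYC (-0.38) and ATF3 (-0.36) had intervals below 0.

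The features whose pair of log2 CPM values lay nearest to that of BTG2 over the 2 libraries were GPRC5B, an orphan receptor gene (68.2 CPM in PAX5 cells and 30.05 CPM in control cells, distance 0.051 on the log2 scale), LIG4, a DNA ligase gene (66.3 and 32.4 CPM, distance 0.069), and MX1, an interferon-induced gene (60.7 and 31.3 CPM, distance 0.164). With 2 libraries this likeness is that of a level and a single ratio.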
